A study of Mus musculus with 9 samples.

Results

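Glycolysis splits glucose into pyruvate, and the genes described here are the 32 mouse genes for its enzymes, for the glucose transporters Slc2a1 and Slc2a3 and for the lactate transporters Slc16a1 and Slc16a3. They were found among 20660 named genes by the RefSeq accession of each array probe and were read by 49 probes. Of these genes, 30 had a probe that stood well above background on 3 or more of the 9 arrays and were tested with the rest of the array, 15016 genes in all. Hk3, a hexokinase of blood cells, and Pgk2, the testis form of phosphoglycerate kinase, did not reach that limit, with a signal above background on 1 and 2 arrays.

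RNA came from mouse embryonic stem (ES) cells, which self-renew in medium with the cytokine LIF and form floating aggregates, embryoid bodies, when LIF is withdrawn. The PKM1 knock-in line, the PKM2 knock-in line and the wild type line were each sampled undifferentiated in LIF (day 0) and as embryoid bodies after 3 and 7 days in floating culture without LIF. A single array was made per line and day, on one-colour Agilent arrays, so each genotype stood for 1 cell line and no culture was repeated. Pyruvate kinase M, the enzyme of the last glycolytic step, is spliced into a PKM1 or a PKM2 form, and the labels say no more about the knock-in alleles. The 3 lines served as repeats for a day and the 3 days as repeats for a genotype, so each p-value measures the spread between these 9 arrays alone.

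Most steps of glycolysis are run by 2 or more isozymes from separate genes, which differ in tissue, in affinity and in regulation. Pluripotent mouse cells use glycolysis heavily, and the oxygen-sensing factor HIF and the growth factor-driven MYC protein are known to act on many of its genes. Pyruvate that does not enter the mitochondrion is reduced to lactate by lactate dehydrogenase and leaves the cell through monocarboxylate transporters.

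Each array was scaled to the same 75th percentile, and levels are given as log2 of the scaled signal, where a unit step is a doubling of signal. Between 54.2% and 61.6% of spots per array were well above background and none was saturated. Arrays lay on 3 slides, 5 on slide 1, 3 on slide 2 and the PKM2 knock-in day 7 array alone on slide 3. All 9 pluripotency markers were above background on at least 3 arrays, with a summed signal of 219721 to 279709 at day 0 and 191171 to 204460 at day 3. At day 7 this sum lay between 80454 in the PKM1 knock-in line and 228597 in PKM2 knock-in cells. The PKM1 knock-in day 7 array also stood apart in visceral endoderm markers (7 of 9 tested), which summed to 467282 there and to 1483 to 8003 on the other 8 arrays, with Apoa1 and Apoa4 not reaching the detection limit. Fibroblast or feeder markers, 8 of 9 tested with Lum below the limit, summed to 660 to 1344 at day 3 and to 3616 to 16254 at day 0, and their part in any difference between these days was not tested. The probe for Pkm, read at 13.56 to 16.10, is not known here to tell the splice forms apart and so does not check the genotype labels.

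Promoter sequences were read for 31 of the 32 genes, from RefSeq on build GRCm38.p6, as the 250 bases before the most upstream listed start. Of these, 5 are printed because they belong to Slc16a3 and Ldha, the 2 genes of the 30 with the largest day 3 changes, to their partners Slc16a1 and Ldhb, and to Eno3, a gene that passed the test there. Pfkm, the other gene that passed, has 4 listed starts and is not shown. Capitals mark ACGTG or GCGTG on either strand, the core of the element that HIF is known to bind, and CACGTG, the MYC-type E-box, contains ACGTG and is capitalised whole.
Ldha: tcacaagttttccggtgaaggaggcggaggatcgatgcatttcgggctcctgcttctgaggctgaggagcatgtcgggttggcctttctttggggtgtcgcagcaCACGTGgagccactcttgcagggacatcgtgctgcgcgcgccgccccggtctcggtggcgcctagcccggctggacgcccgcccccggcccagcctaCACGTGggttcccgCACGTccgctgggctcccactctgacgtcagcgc
Ldhb: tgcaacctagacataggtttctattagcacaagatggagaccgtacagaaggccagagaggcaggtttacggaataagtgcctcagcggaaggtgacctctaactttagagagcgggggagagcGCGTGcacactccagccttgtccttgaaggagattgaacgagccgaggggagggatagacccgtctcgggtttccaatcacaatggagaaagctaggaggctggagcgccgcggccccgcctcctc
Slc16a3: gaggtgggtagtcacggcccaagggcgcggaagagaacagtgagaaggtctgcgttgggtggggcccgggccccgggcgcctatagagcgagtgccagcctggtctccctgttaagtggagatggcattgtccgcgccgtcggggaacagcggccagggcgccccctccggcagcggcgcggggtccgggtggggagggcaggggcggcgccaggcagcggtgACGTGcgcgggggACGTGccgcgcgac
Slc16a1: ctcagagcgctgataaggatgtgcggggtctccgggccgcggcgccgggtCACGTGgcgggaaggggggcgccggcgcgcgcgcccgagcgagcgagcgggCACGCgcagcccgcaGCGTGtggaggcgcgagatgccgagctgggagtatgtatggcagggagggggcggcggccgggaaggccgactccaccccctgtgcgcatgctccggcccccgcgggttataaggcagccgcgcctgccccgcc
Eno3: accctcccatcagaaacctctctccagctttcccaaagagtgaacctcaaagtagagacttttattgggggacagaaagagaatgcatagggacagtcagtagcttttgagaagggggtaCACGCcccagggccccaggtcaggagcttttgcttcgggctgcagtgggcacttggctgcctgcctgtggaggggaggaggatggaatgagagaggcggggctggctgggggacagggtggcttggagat
The windows are chr7:46845554-46845803 on the plus strand for Ldha, chr6:142507958-142508207 on the minus strand for Ldhb, chr11:120948817-120949066 on the plus strand for Slc16a3, chr3:104638414-104638663 on the plus strand for Slc16a1 and chr11:70656926-70657175 on the plus strand for Eno3. Ldha had 3 matches, at -145, -48 and -34 from the start, and Slc16a3 had 2, at -27 and -14. Slc16a1 also had 3, at -200, -149 and -134, while Ldhb and Eno3 had 1 each. Such a match was present in 19 of 29 tested genes of the pathway (65.5%), in 53.7% of all tested genes with a promoter and in 38.6% of all promoters. For CACGTG the shares were 10.3%, 8.16% and 6.04%. The matches describe letters only, and no binding was measured.

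Day 3 embryoid bodies were compared with undifferentiated cells to follow the pathway through the first days without LIF. At day 3, 23 of the 30 tested genes had a higher signal than at day 0, with a median log2 change of 0.47, against 57.2% of all tested genes and a median of 0.09. In limma, 2 of the 30, Pfkm and Eno3, passed an adjusted p of 0.05 (Benjamini-Hochberg over all genes), and both rose. Over the whole array 4.05% of genes were called at this contrast, 1.85% as higher and 2.2% as lower. An unadjusted p under 0.05 was found for 16 of the 30, against 26.3% of all genes. All 3 day 3 arrays lay above all 3 day 0 arrays for 12 of the 30 and below them for 2, against 22.6% and 14.1% of all genes.

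Differences within single lines were unequal. From day 0, the median log2 difference at day 3 over the 30 genes was 0.68 in the PKM1 knock-in line (21 higher). It was 0.13 in the PKM2 knock-in line (18 higher) and 1.08 in the wild type line (24 higher). Over all tested genes the medians were 0.09, 0.06 and 0.15 in the same lines, with 55.7%, 54.0% and 58.7% higher. The PKM2 knock-in pair is the one whose arrays shared a slide, slide 1. From day 0 to day 3, wild type went from slide 1 to slide 2 and PKM1 knock-in from slide 2 to slide 1. Within slide 1 at day 0, the median difference of PKM2 knock-in from wild type over the 30 genes was 0.69. The part of the slide in the order of the lines was not tested. At day 0 the fibroblast or feeder marker sum was 15427 in PKM1 knock-in, 3616 in PKM2 knock-in and 16254 in wild type. Its part in this order was not tested. Of the 27 genes above background on all 9 arrays, 13 had their lowest signal on the wild type day 0 array, against 12.5% of all such genes. The PKM1 knock-in day 3 array held the highest signal for 10 of them, against 15.3% of all genes. In RNA from whole cultures, fewer cells of one type and less RNA per cell cannot be told apart.

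**Figure D1:**
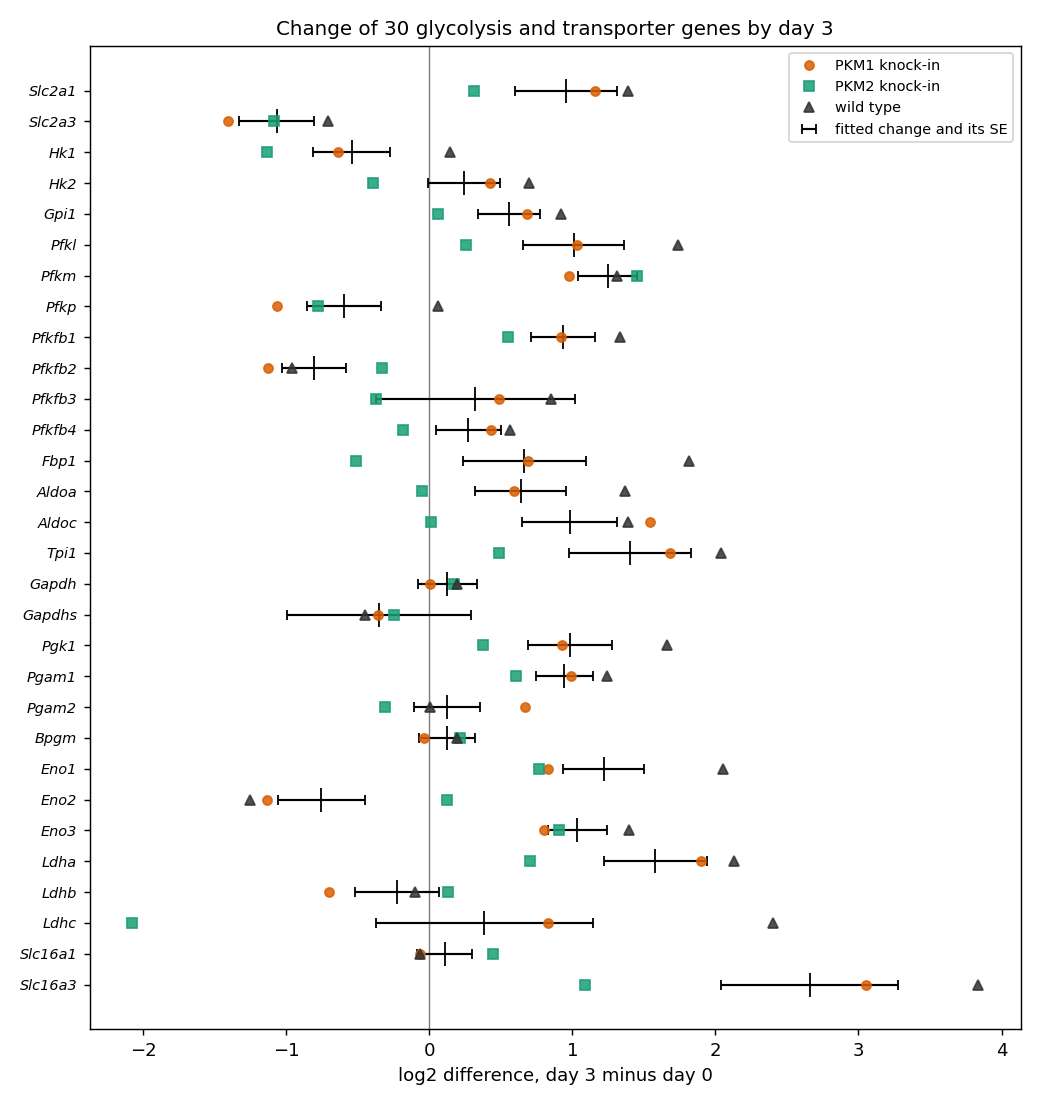
Log2 difference of scaled signal between day 3 and day 0 (x axis) for the 30 tested genes in pathway order (y axis). Points are the 3 lines, and the black tick with its bar is the fitted change with its standard error. Pfkm and Eno3 have all 3 points close to the fitted change, while Slc16a3 and Ldha have larger changes with wider spread and the PKM2 knock-in point lowest.

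At the entry of glucose, the 2 transporters went opposite ways by day 3. Slc2a1 encodes GLUT1, the widespread transporter, and on days 0, 3 and 7 its log2 signal was 13.48, 14.64 and 15.24 in PKM1 knock-in cells, 14.12, 14.44 and 14.07 in PKM2 knock-in cells and 12.89, 14.28 and 14.24 in wild type cells. All 3 day 3 arrays lay above all day 0 arrays, a fitted change of 0.95 ± 0.35 (SE) that did not pass the test (limma adjusted p = 0.155). Slc2a3 encodes GLUT3, the high-affinity transporter of neurons and early embryos, and stood at 16.44, 15.04 and 16.71 in PKM1 knock-in cells, 15.83, 14.74 and 15.89 in PKM2 knock-in cells and 15.64, 14.93 and 15.31 in wild type cells. Its day 3 arrays were the lowest of each line, at -1.07 ± 0.26 against day 0 (limma adjusted p = 0.0749) and with day 7 at 1.07 ± 0.26 above day 3 (limma adjusted p = 0.0856). The log2 ratio of Slc2a3 to Slc2a1 signal was accordingly lower at day 3 than at day 0 in all 3 lines, by -2.57 in PKM1 knock-in, -1.40 in PKM2 knock-in and -2.10 in wild type. A ratio of probes has no absolute meaning, and only its change between arrays is read here.

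**Figure D2:**
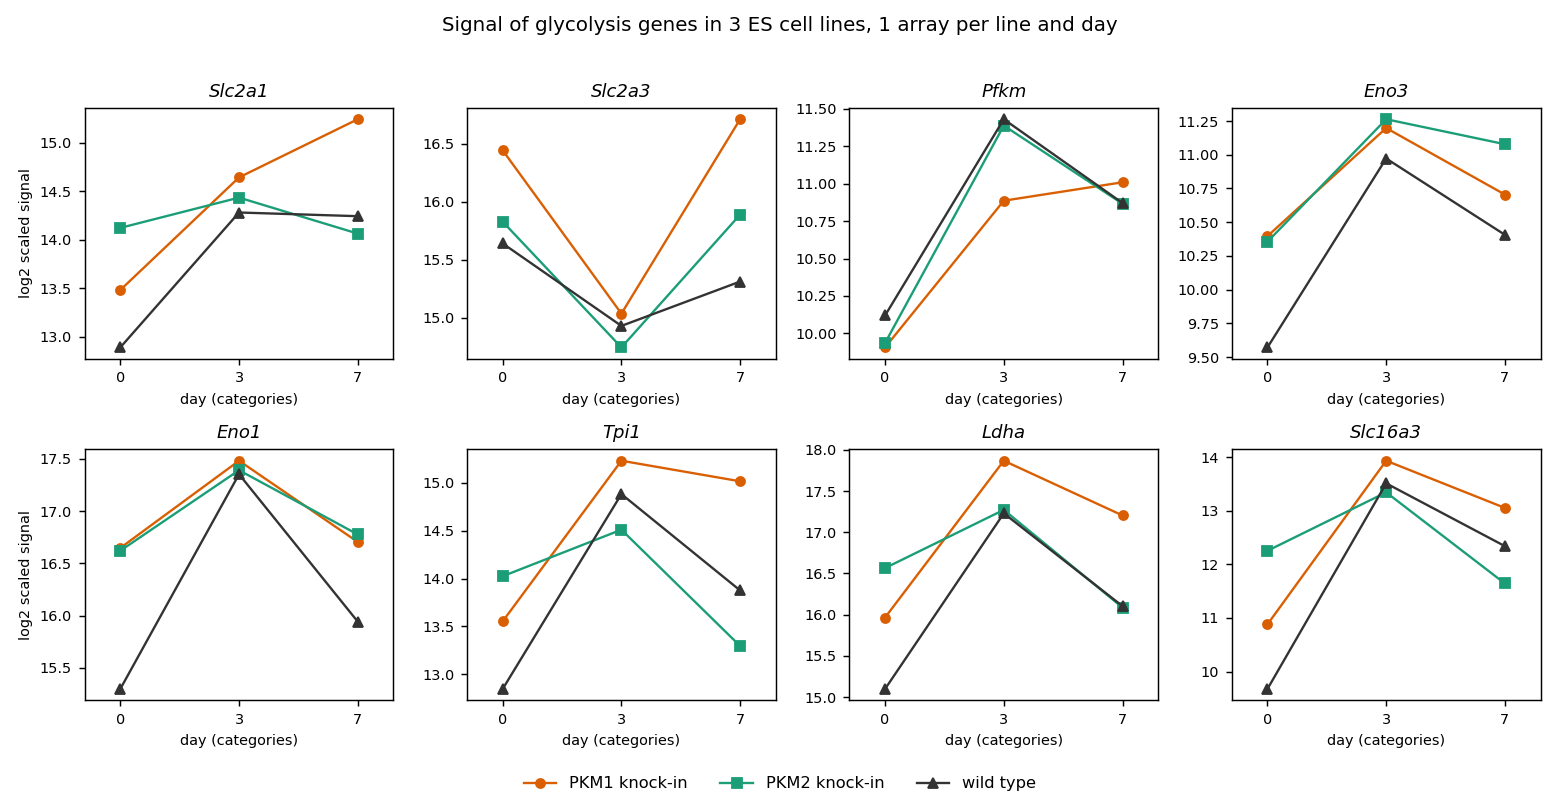
Log2 scaled signal (y axis) of 8 genes at days 0, 3 and 7 (x axis, drawn as categories), with 1 point per array and a line per ES cell line. Slc2a3 is lowest at day 3 in each line. Slc2a1, Pfkm, Eno3, Eno1, Tpi1, Ldha and Slc16a3 are above their day 0 values at day 3 in each line.

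Hexokinase traps glucose as glucose phosphate, and its forms differed between lines more than between days. Hk2, the inducible form of muscle and of many tumours, had log2 signals at days 0, 3 and 7 of 11.89, 12.31 and 11.77 in PKM1 knock-in cells, 12.85, 12.45 and 12.00 in PKM2 knock-in cells and 10.55, 11.25 and 10.24 in wild type cells. Every array of the knock-in lines lay above every wild type array. Hk1, the form of brain and most tissues, stood at 11.93, 11.29 and 11.35 in PKM1 knock-in cells, 11.92, 10.78 and 10.73 in PKM2 knock-in cells and 12.12, 12.26 and 11.71 in wild type cells. The 2 probes of Hk1 gave day 3 changes of -0.54 and -0.49. Gpi1, which turns glucose phosphate into fructose phosphate, had a day 3 change of 0.56 ± 0.22 (limma adjusted p = 0.172), with 0.56 to 0.62 over its 3 probes.

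Phosphofructokinase, the committed step, has 3 forms, of which Pfkm passed the test at day 3. On days 0, 3 and 7 Pfkm, the muscle form, had a log2 signal of 9.91, 10.89 and 11.01 in PKM1 knock-in cells, 9.94, 11.39 and 10.87 in PKM2 knock-in cells and 10.12, 11.43 and 10.87 in wild type cells. All 3 day 3 arrays and all 3 day 7 arrays lay above all 3 day 0 arrays. Pfkm averaged 11.23 ± 0.30 at day 3 and 9.99 ± 0.12 at day 0 (SD, n = 3 each), a rise of 1.25 ± 0.21 (SE), or 2.37-fold, with limma adjusted p = 0.0354. It was higher in 3 of 3 lines, by 0.98 in PKM1 knock-in, 1.45 in PKM2 knock-in and 1.31 in wild type, and the PKM2 knock-in value was taken within slide 1. Pfkl, the liver form, changed by 1.01 ± 0.35 (limma adjusted p = 0.140), with day 3 arrays at 11.55 to 11.72 and day 0 arrays at 9.95 to 11.30. Pfkp, the platelet form, changed by -0.59 ± 0.26 (limma adjusted p = 0.206), with overlapping ranges of 11.12 to 11.56 at day 3 and 11.20 to 12.34 at day 0. Its second probe gave -0.42.

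The call of Pfkm and that of Eno3 (given below) were each lost when some single arrays or a block were taken into account. With slide as an added block the limma adjusted p was 0.0508 for Pfkm and 0.0681 for Eno3, at the same fitted change. For Pfkm it was 0.139, 0.147 and 0.0669 without the wild type day 0, day 3 or day 7 array, 0.147 and 0.126 without the PKM1 knock-in day 0 or day 3 array, and 0.107 and 0.0868 without the PKM2 knock-in day 0 or day 3 array. For Eno3 the same omissions gave limma adjusted p of 0.188, 0.181, 0.0948, 0.147, 0.197, 0.129 and 0.0879. Fitted changes over these omissions and those of whole lines stayed between 1.15 and 1.42 for Pfkm and between 0.85 and 1.17 for Eno3. Summed signal of the cardiac and striated muscle markers, 8 of 10 tested with Actc1 and Ckm below the limit, was 617 to 1023 at day 3 and 669.7 to 980 at day 0. Their part in the change of these muscle-type isozymes was not tested.

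Bifunctional enzymes of the Pfkfb family set the level of a sugar bisphosphate that activates phosphofructokinase and restrains the reverse step. Pfkfb1, the liver form, was higher on all 3 day 3 arrays (10.74 to 11.02) than on day 0 arrays (9.57 to 10.19), a change of 0.94 ± 0.22 (limma adjusted p = 0.0708). Pfkfb2, the heart form, was lower on all 3 day 3 arrays (6.35 to 6.85) than on day 0 arrays (7.13 to 7.81), a change of -0.81 ± 0.22 (limma adjusted p = 0.0917). Neither passed the test. Pfkfb3, the inducible form with high kinase activity, had log2 signals at days 0, 3 and 7 of 8.65, 9.13 and 11.42 in PKM1 knock-in cells, 9.74, 9.37 and 8.70 in PKM2 knock-in cells and 8.22, 9.08 and 10.31 in wild type cells. It was thus highest at day 7 in PKM1 knock-in and wild type and lowest at day 7 in PKM2 knock-in. Pfkfb4, known from testis and tumours, stayed between 8.13 and 9.29. Fbp1, the phosphatase that runs the step backwards in gluconeogenesis, was above background on 7 arrays and had a day 3 change of 0.67 ± 0.43 (limma adjusted p = 0.368).

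The lower steps from aldolase to phosphoglycerate mutase had higher day 3 values for the widespread isozymes, none of which passed the test. Aldoa, the aldolase of muscle and most cells, changed by 0.64 ± 0.32 (limma adjusted p = 0.258), and Aldoc, the brain form, by 0.98 ± 0.33 (limma adjusted p = 0.132). Tpi1, triose phosphate isomerase, had log2 signals at days 0, 3 and 7 of 13.55, 15.23 and 15.02 in PKM1 knock-in cells, 14.02, 14.51 and 13.29 in PKM2 knock-in cells and 12.85, 14.88 and 13.88 in wild type cells. Its day 3 change was 1.40 ± 0.43 (limma adjusted p = 0.108), and its 2 probes gave 1.37 and 1.40. Gapdh, which oxidises glyceraldehyde phosphate and often serves as a loading control, lay between 17.92 and 18.49 on all 9 arrays. Its day 3 change was 0.13 ± 0.21 (limma adjusted p = 0.738), with 0.13 to 0.47 over 7 probes. Gapdhs, the sperm form, was above background on 4 arrays, and Ldhc and Fbp1 on 6 and 7, while the other 27 tested genes were above it on all 9.

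Pgk1, phosphoglycerate kinase, changed by 0.99 ± 0.29 at day 3 (limma adjusted p = 0.104). Pgam1, the widespread phosphoglycerate mutase, had day 3 arrays at 16.67 to 16.82 and day 0 arrays at 15.43 to 16.06, a change of 0.95 ± 0.20 (limma adjusted p = 0.0560). These groups did not overlap. Pgam2, the muscle form, lay between 7.46 and 8.29 on all arrays, with a day 3 change of 0.12 ± 0.23 (limma adjusted p = 0.774). Bpgm, which makes the bisphosphoglycerate that loosens oxygen binding in red cells, changed by 0.12 ± 0.19 (limma adjusted p = 0.726).

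Among the enolases, Eno3, the muscle form, had log2 signals at days 0, 3 and 7 of 10.40, 11.20 and 10.71 in PKM1 knock-in cells, 10.36, 11.26 and 11.08 in PKM2 knock-in cells and 9.57, 10.97 and 10.41 in wild type cells. All 3 day 3 arrays and all 3 day 7 arrays lay above all 3 day 0 arrays. Eno3 averaged 11.14 ± 0.15 at day 3 and 10.11 ± 0.46 at day 0 (SD, n = 3 each), a rise of 1.04 ± 0.20 (SE), or 2.05-fold, with limma adjusted p = 0.0468. It was higher in 3 of 3 lines, by 0.80 in PKM1 knock-in, 0.91 in PKM2 knock-in, where both arrays were on slide 1, and 1.40 in wild type. The call is lost with slide as a block or without single arrays, as given above for Pfkm, and also under quantile normalization (limma adjusted p = 0.0546).

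Eno1, the widespread enolase, had day 3 arrays within 17.35 to 17.48 and day 0 arrays at 15.30 to 16.65, the wild type array being the lowest. Its change of 1.22 ± 0.28 did not pass the test (limma adjusted p = 0.0676). Eno2, the neuronal form, had log2 signals at days 0, 3 and 7 of 9.70, 8.57 and 9.80 in PKM1 knock-in cells, 8.27, 8.40 and 9.15 in PKM2 knock-in cells and 9.43, 8.17 and 9.89 in wild type cells. All 3 day 7 arrays were above all 3 day 3 arrays. Day 7 exceeded day 3 by 1.23 ± 0.30 (limma adjusted p = 0.0854), and day 3 differed from day 0 by -0.75 ± 0.30 (limma adjusted p = 0.178). Summed neural marker signal was 6779 to 18400 at day 7 and 9754 to 13816 at day 3, and its part was not tested.

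The largest day 3 changes came at the end of the pathway, in lactate formation and export, without passing the test. Ldha, the lactate dehydrogenase subunit of muscle, whose promoter with its 3 matches is printed above, had log2 signals at days 0, 3 and 7 of 15.97, 17.87 and 17.20 in PKM1 knock-in cells, 16.57, 17.27 and 16.09 in PKM2 knock-in cells and 15.10, 17.23 and 16.10 in wild type cells. All 3 day 3 arrays lay above all day 0 arrays, by 1.58 ± 0.36 on average (2.99-fold, limma adjusted p = 0.0640), and its 3 probes gave 1.58 to 2.20. Ldhb, the heart subunit, stood at 15.89, 15.19 and 15.84 in PKM1 knock-in cells, 14.41, 14.54 and 15.73 in PKM2 knock-in cells and 14.33, 14.23 and 15.52 in wild type cells. Its highest values were thus not at day 3 in any line. Day 3 differed from day 0 by -0.22 ± 0.29 (limma adjusted p = 0.667), and day 7 exceeded day 3 by 1.04 ± 0.29 (limma adjusted p = 0.0961). Ldhc, the testis subunit, was dim, between 2.74 and 6.59, and its day 3 difference was 0.83 in PKM1 knock-in, -2.08 in PKM2 knock-in and 2.40 in wild type.

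Slc16a3 encodes MCT4, the lactate exporter of glycolytic muscle, and had the largest day 3 change among the 30 genes. Its log2 signals at days 0, 3 and 7 were 10.88, 13.93 and 13.05 in PKM1 knock-in cells, 12.25, 13.34 and 11.64 in PKM2 knock-in cells and 9.67, 13.51 and 12.34 in wild type cells. The groups at days 3 and 0 did not overlap, although the 3 lines differed far more at day 0 than at day 3. Slc16a3 averaged 13.60 ± 0.30 at day 3 and 10.94 ± 1.29 at day 0 (SD, n = 3 each), a change of 2.66 ± 0.62 (SE), or 6.32-fold, with limma adjusted p = 0.0676. The change was 3.05 in PKM1 knock-in, 1.09 in PKM2 knock-in and 3.84 in wild type, and its 2 probes gave 2.66 and 2.67. Slc16a1 encodes MCT1, the widespread transporter for lactate uptake and release, and stayed between 5.87 and 6.58, with a day 3 change of 0.11 ± 0.19 (limma adjusted p = 0.763). Its probe was dim, at a scaled signal of 58.4 to 95.5, but well above background on all 9 arrays. Motif matches were found before the start of both genes, 2 for Slc16a3 and 3 for Slc16a1, as printed above.

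At day 7 the lines stood on either side of their day 0 levels. Over the 30 genes, the median log2 difference at day 7 from day 0 was 0.08 in PKM1 knock-in (18 higher), -0.18 in PKM2 knock-in (13 higher), whose day 7 array was alone on its slide, and 0.45 in wild type (20 higher). Over all tested genes the medians were -0.17, 0.04 and -0.03 in the same lines, with 41.8%, 53.4% and 47.3% higher. The median fitted change was 0.12, with 18 of 30 genes higher, against -0.04 over all genes, of which 46.5% were higher. None of the 30 passed the limma test, where 0.0999% of all genes were called, 0.00666% as higher and 0.0932% as lower. An unadjusted p under 0.05 was found for 5 of the 30, against 14.3% of all genes. The largest changes were -1.74 ± 0.76 for Ldhc (limma adjusted p = 0.362), 1.41 ± 0.62 for Slc16a3 (0.365), 1.27 ± 0.69 for Pfkfb3 (0.447), 1.02 ± 0.35 for Slc2a1 (0.280) and 0.93 ± 0.21 for Pfkm (0.172). Ldhc was above background on 1 of the 3 day 7 arrays, and its change was -0.65 with normexp correction, -1.10 with a floor of 20 and -0.87 without the PKM2 knock-in day 0 array. Pfkm and Eno3 were the 2 genes with all day 7 arrays above all day 0 arrays (7.05% of all genes), and Hk1 was the 1 gene with all of them below (8.74%).

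From day 3 to day 7 the pattern ran the other way for most genes. Day 7 was higher than day 3 for 8 of 30 genes, with a median of -0.41, against 41.4% and a median of -0.13 over all genes. None passed the limma test, nor did any of the 15016 genes (0.0%), and an unadjusted p under 0.05 was found for 10 of the 30, against 30.4% of all genes. All day 7 arrays lay above all day 3 arrays for 4 genes, Slc2a3, Pfkfb2, Eno2 and Ldhb (10.1% of all genes). They lay below for 8 (21.5% of all genes), Pfkfb1, Pfkfb4, Aldoc, Pgam1, Eno1, Ldha, Ldhc and Slc16a3. Aldoc differed by -1.33 ± 0.33 (limma adjusted p = 0.0875), Slc16a3 by -1.25 ± 0.62 (0.217) and Ldhc by -2.13 ± 0.76 (0.126). The Ldhc value was -0.77 with normexp correction and -1.24 without the wild type day 3 array, and that of Slc16a3 was -0.63 without the PKM2 knock-in day 7 array. The F test over all 3 days called none of the 30, against 1.18% of all genes, with Pfkm at an adjusted p of 0.0620 in limma and an unadjusted p under 0.05 for 29.9% of all genes.

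Choice of isozyme within a step was followed by the log2 ratio of 2 probes on the same array, for 11 pairs. Day labels were permuted within lines over all 216 arrangements, so the smallest p that this exact test can give is 0.0278, and 3 pairs reached it. These were Hk2 to Hk1, Aldoc to Aldoa and Pgam2 to Pgam1, each at 0.102 in the exact permutation test after Benjamini-Hochberg adjustment over the 11 pairs. No pair passed 0.05 after that adjustment. The ratio of Hk2 to Hk1 was higher at day 3 than at day 0 by 1.06 in PKM1 knock-in, 0.74 in PKM2 knock-in and 0.56 in wild type, a mean of 0.78 ± 0.26 (SD, n = 3). It was lower again at day 7 than at day 3 in all 3 lines, by -0.49 ± 0.11. Hk2 itself differed at day 3 from day 0 by 0.42 in PKM1 knock-in, -0.39 in PKM2 knock-in and 0.70 in wild type. Hk1 differed by -0.64, -1.13 and 0.14 in the same lines.

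Aldoc to Aldoa was highest at day 3 and lowest at day 7 in each line. Day 3 exceeded day 0 by 0.95 in PKM1 knock-in, but by only 0.06 in PKM2 knock-in and 0.02 in wild type. The step of this ratio at day 7 from day 3 was -1.71 in PKM1 knock-in, -0.15 in PKM2 knock-in and -0.48 in wild type. Pgam2 to Pgam1 was lowest at day 3 in each line, by -0.82 ± 0.46 against day 0. Pgam2 itself differed at day 3 from day 0 by 0.67 in PKM1 knock-in, -0.31 in PKM2 knock-in and 0.01 in wild type, and Pgam1 by 0.99, 0.60 and 1.24 in the same lines. Under quantile normalization 1 of the 3 pairs, Hk2 to Hk1, still reached the smallest p.

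The 8 other pairs did not reach the smallest p, and their day 3 shifts were in part larger and in part smaller than those above. The exact permutation p was 0.0556 for Slc2a3 to Slc2a1 and for Pfkp to Pfkl, which was lower at day 3 than at day 0 by -1.60 ± 0.53 (SD, n = 3) and lower in all 3 lines. Eno2 to Eno1 was lower by -1.97 ± 1.33 at day 3 than at day 0 and higher by 2.16 ± 0.89 at day 7 than at day 3 (exact permutation p = 0.0833). Ldhb to Ldha was lower by -1.80 ± 1.08 at day 3, with -2.60 in PKM1 knock-in, -0.58 in PKM2 knock-in and -2.23 in wild type, and higher by 2.03 ± 0.62 at day 7 than at day 3 (exact permutation p = 0.111). Slc16a3 to Slc16a1 was higher by 2.55 ± 1.70 at day 3 (exact permutation p = 0.139). Pfkm to Pfkl, whose forms were both higher at day 3, moved by 0.24 ± 0.85 (exact permutation p = 0.583). Eno3 to Eno1 moved by -0.18 ± 0.42 at day 3 (exact permutation p = 0.0833), and Pfkfb4 to Pfkfb3 by -0.05 ± 0.24 (exact permutation p = 0.306).

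**Figure D3:**
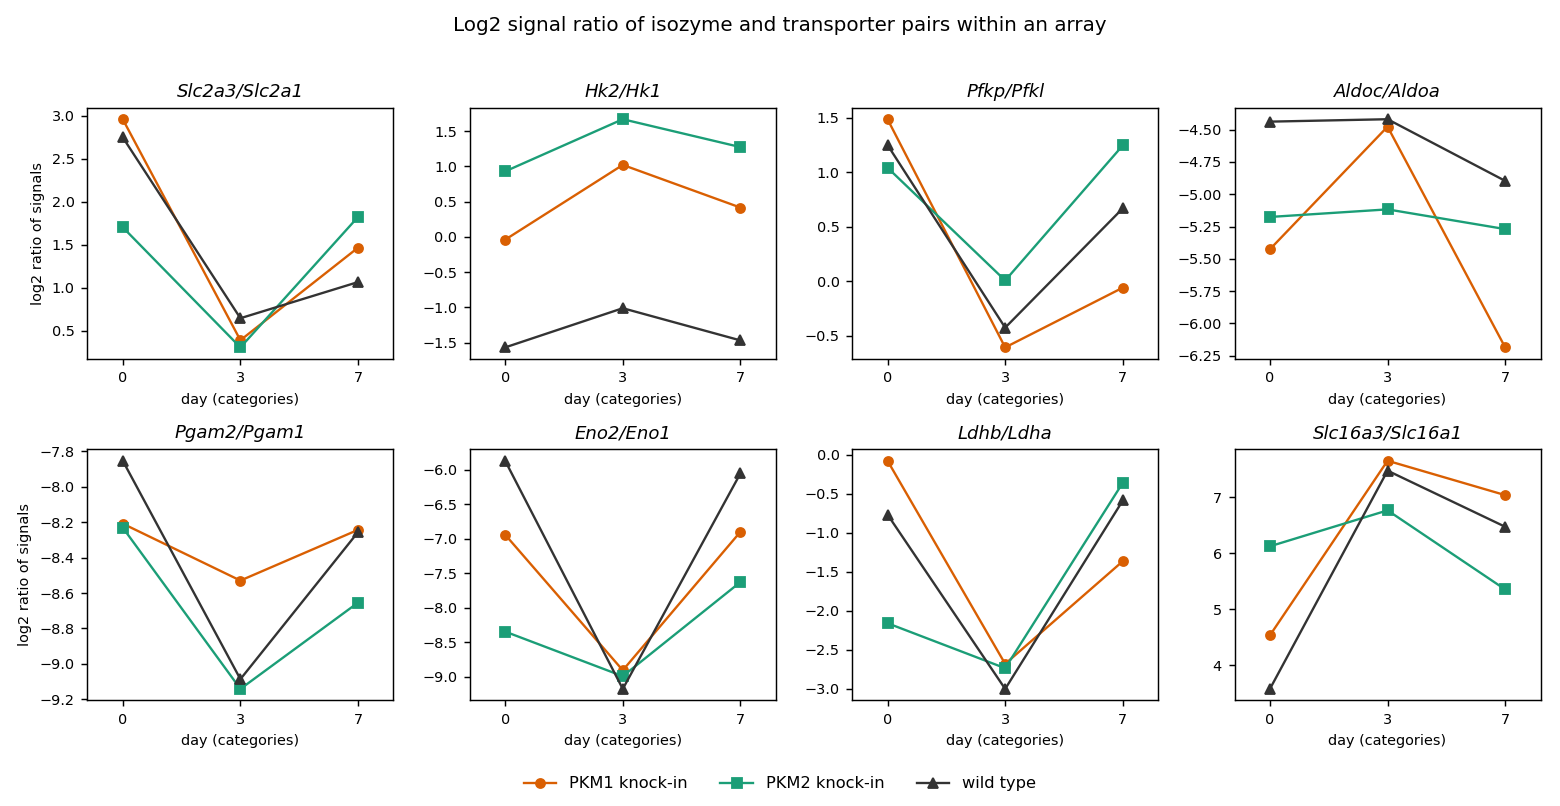
Log2 ratio of the signals of 2 isozymes or transporters on the same array (y axis) at days 0, 3 and 7 (x axis, drawn as categories), 1 point per array, for 8 of the 11 pairs. The Hk2 to Hk1 ratio peaks at day 3 in each line and is ordered PKM2 knock-in, PKM1 knock-in, wild type from high to low on each day, while Slc2a3 to Slc2a1, Eno2 to Eno1 and Ldhb to Ldha dip at day 3.

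Knock-in lines were compared with the wild type line over the 3 days, to see how glycolysis genes stood in cells with an altered pyruvate kinase form. In the PKM1 knock-in line 24 of 30 genes were higher than in wild type, with a median of 0.42, against 52.8% and 0.02 over all genes. None passed the limma test, where 0.0133% of all genes were called, and an unadjusted p under 0.05 was found for 8 of 30, against 12.1% of all genes. In the PKM2 knock-in line 23 of 30 were higher than in wild type, with a median of 0.30, against 53.7% and 0.04 over all genes. None passed here either (0.0133% of all genes), and 6 of 30 had an unadjusted p under 0.05, against 13.3%. With quantile normalization the PKM2 knock-in count was 19 of 30. Since 1 line stood for each genotype, genotype and clone cannot be told apart.

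Hk2 differed most in its own spread, at 11.99 ± 0.29 in PKM1 knock-in and 12.43 ± 0.42 in PKM2 knock-in, against 10.68 ± 0.52 in wild type (SD over 3 days). The fitted differences from wild type were 1.31 ± 0.25 for PKM1 knock-in (limma adjusted p = 0.162) and 1.75 ± 0.25 for PKM2 knock-in (limma adjusted p = 0.110), higher on 3 of 3 days in both. On slide 1 at day 0, the PKM2 knock-in array exceeded the wild type array by 2.29. Hk1 differed by -0.50 ± 0.27 in PKM1 knock-in and -0.88 ± 0.27 in PKM2 knock-in (limma adjusted p = 0.534 and 0.240). The log2 ratio of Hk2 to Hk1 was thus higher than in wild type by 1.81 ± 0.26 in PKM1 knock-in and 2.64 ± 0.13 in PKM2 knock-in (SD over 3 days), a value given without a test.

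Bpgm was higher than in wild type by 0.87 ± 0.19 in PKM1 knock-in (limma adjusted p = 0.180) and 0.92 ± 0.19 in PKM2 knock-in (limma adjusted p = 0.135). Its knock-in arrays ranged from 9.45 to 9.92 and its wild type arrays from 8.53 to 9.15. Fbp1 stood at 4.78, 5.47 and 5.06 in PKM1 knock-in cells, 5.47, 4.95 and 4.37 in PKM2 knock-in cells and 6.11, 7.93 and 6.52 in wild type cells on days 0, 3 and 7. The 3 wild type arrays were the highest and were all above background, as were 2 arrays of each knock-in line. Fitted differences were -1.75 ± 0.43 in PKM1 knock-in and -1.92 ± 0.43 in PKM2 knock-in (limma adjusted p = 0.208 and 0.140). With normexp background correction these dim values differed by -0.70 and -0.73. These 3 genes, with Pgam2 in PKM1 knock-in and with Pfkp and Slc16a1 in PKM2 knock-in, were those whose groups did not overlap. That is 3 genes above and 1 below wild type for PKM1 knock-in (4.89% and 5.12% of all genes). For PKM2 knock-in it is 4 above and 1 below (7.92% of all genes above and 6.52% below). Some gaps were narrow. The lowest knock-in and highest wild type values were 7.60 and 7.58 for Pgam2, 6.13 and 6.10 for Slc16a1, and 11.56 and 11.52 for Pfkp. The second probe of Pfkp overlapped, at 7.11 to 7.67 in PKM2 knock-in and 6.95 to 7.75 in wild type.

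**Figure D4:**
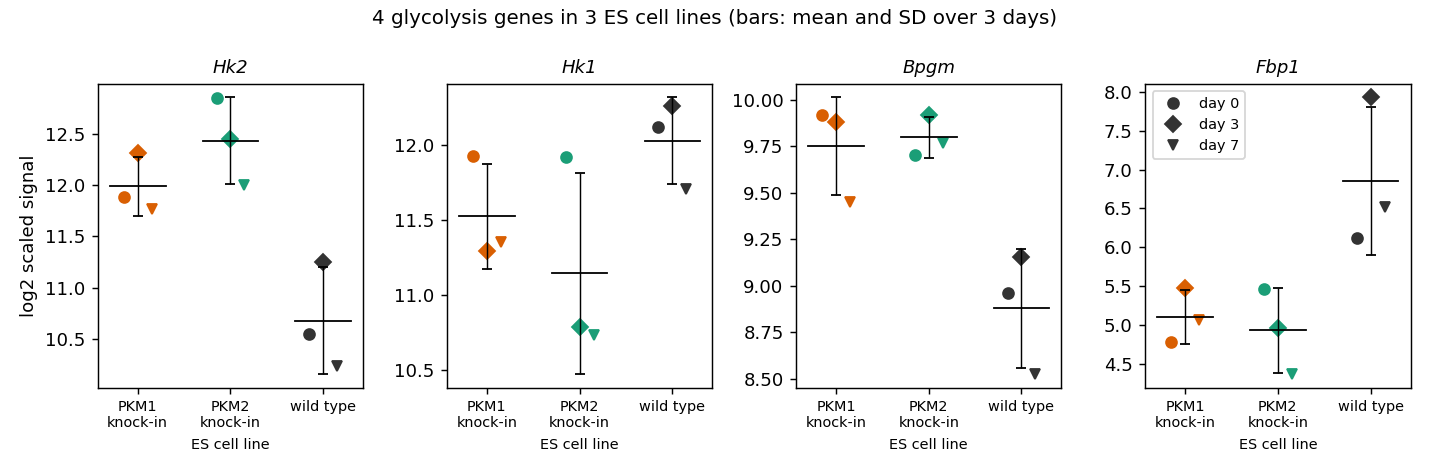
Log2 scaled signal (y axis) of Hk2, Hk1, Bpgm and Fbp1 in the 3 ES cell lines (x axis), with a point for each day and the mean and SD over 3 days. Hk2 and Bpgm are higher and Fbp1 is lower on every array of both knock-in lines than on every wild type array, while Hk1 overlaps.

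Other differences from wild type varied in size between days. In PKM1 knock-in, Ldha differed by 0.87 ± 0.36 (limma adjusted p = 0.408), with 0.87, 0.64 and 1.10 on days 0, 3 and 7. Ldhb differed there by 0.95 ± 0.29 (limma adjusted p = 0.273), with 1.56, 0.96 and 0.32 on these days, and by 0.61 without the PKM1 knock-in day 0 array. In PKM2 knock-in, Eno1 differed by 0.73 ± 0.28 (limma adjusted p = 0.343), with 1.32, 0.04 and 0.83 on the 3 days, and by 0.43 without the wild type day 0 array. Over the 30 genes, the median difference of PKM2 knock-in from wild type was 0.69 on day 0, within slide 1, 0.02 on day 3 and 0.09 on day 7. For PKM1 knock-in it was 0.62, 0.18 and 0.37. Over all tested genes the medians on days 0, 3 and 7 were 0.05, -0.05 and 0.13 for PKM2 knock-in. They were 0.08, 0 and -0.05 for PKM1 knock-in. Wild type day 0, the array with the lowest signal for 13 genes, enters the day 0 values of both lines.

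Between the knock-in lines, 9 of 30 genes were higher in PKM2 knock-in than in PKM1 knock-in, against 52.1% of all genes. None was called by limma (0.0% of all genes). An unadjusted p under 0.05 was found for 2 of the 30, Ldhb and Eno2, against 7.77% of all genes. Ldhb differed by -0.75 ± 0.29, Eno2 by -0.75 ± 0.30, Tpi1 by -0.66 ± 0.43, Slc2a3 by -0.58 ± 0.26 and Pfkfb3 by -0.46 ± 0.69. No gene had all arrays of one line above or below all arrays of the other (3.42% of all genes above, 3.96% below). By day, 19, 8 and 12 of the 30 were higher on days 0, 3 and 7, against 47.9%, 43.4% and 59.1% of all genes. With slide as a block, which also leaves out the PKM2 knock-in day 7 array, 20 of 30 genes were higher in PKM2 knock-in, and the part of the slide in this turn cannot be told apart from that of the array. The F test over the 3 genotypes called none of the 30, against 0.0133% of all genes, with 12.7% of all genes at an unadjusted p under 0.05 and Hk2 at a limma adjusted p of 0.158.

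Genes beside the pathway were read from lists chosen with earlier results of these data known. Among 25 other genes of sugar metabolism, 21 were tested and none was called at day 3, with 12 higher, 9 lower and a median log2 change of 0.07. The largest were Slc16a7, which encodes the lactate transporter MCT2, at -1.77 ± 0.41 (limma adjusted p = 0.0645), and Gpd1l at 1.59 ± 0.34 (limma adjusted p = 0.0561). Between lines, the largest value in this list was that of Fbp2, the muscle form of the Fbp1 enzyme. Fbp2 stood at 4.86, 4.74 and 3.58 in PKM1 knock-in cells, 4.56, 4.53 and 3.51 in PKM2 knock-in cells and 8.34, 7.80 and 5.93 in wild type cells on days 0, 3 and 7. Its differences from wild type were -2.96 ± 0.28 in PKM1 knock-in and -3.16 ± 0.28 in PKM2 knock-in (limma adjusted p = 0.0915 and 0.0619), with 6 arrays above background in all. Hkdc1, a hexokinase-like gene, reached 14.57 on the PKM1 knock-in day 7 array, the one with high visceral endoderm markers, with 8.18 in PKM2 knock-in and 10.32 in wild type on that day.

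Of 14 regulators, 12 were tested and 2 were called at day 3, 1 higher and 1 lower, against 1.85% and 2.2% of all genes. Myc, which encodes a transcription factor that drives glycolysis genes, rose by 1.65 ± 0.30 (limma adjusted p = 0.0421) and was higher by 2.03 in PKM1 knock-in, 0.83 in PKM2 knock-in and 2.08 in wild type. Txnip, which encodes an inhibitor of glucose uptake, fell by 1.81 on the log2 scale ± 0.31 (limma adjusted p = 0.0371) and was lower in all 3 lines. These 2 calls were not followed through the alternative settings. The median of the 12 was 0.21. All 12 hypoxia-inducible genes from outside glycolysis were tested and none was called, with 6 higher, 6 lower and a median of 0.00 at day 3. Vegfa, a vessel growth factor, was at -2.24 ± 0.54 (limma adjusted p = 0.0710) and Bnip3, a mitophagy receptor, at 2.0 ± 0.81 (limma adjusted p = 0.181).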

How the data were processed

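RNA was column-purified and Cy3-labelled, per the labels. Per the file headers, the authors made the deposited intensity values with Agilent Feature Extraction (10.10 per the submitters' processing notes), as background-subtracted processed signals. The sources used here do not give the medium beyond LIF, the use of feeder cells or the design of the knock-in alleles. From the 62976 spots of an array, 3671 controls and 133 to 225 outlier spots were left out.

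Probes were named by RefSeq accession (27235 of 55681 with 1 symbol). Processed signals were scaled to a common 75th percentile, floored at 5 and turned into log2. A gene was its probe with the highest mean signal among those well above background on at least 3 arrays. Genotype and day entered 1 additive limma fit (limma 3.58.1, R 4.3.3) of 15016 genes on 9 arrays, with Benjamini-Hochberg adjustment over all genes. The fit was also run on simulated data with independent noise for each gene and array. These data held no slide effect, so that run does not bear on one. Log2 changes had a median standard error of 0.262. The number of arrays limits the precision. Isozyme ratios were tested by exact permutation of days within lines.

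The genes and lists were chosen with earlier results of these data known. Genes called in any comparison, the up to 5 largest changes per comparison, all isozyme pairs and up to 2 genes per list are named, and the text adds the remaining genes of the pathway by role. Promoter letters were read from RefSeq on GRCm38.p6. The array header names build mm9, so no other coordinates are given. The results were recomputed with normexp correction (offset 50), with quantile normalization, with the authors' value table, 2 other filters, floors of 1 and 20, the mean of probes, slide as a block, trend and robust moderation, a threshold of 0.1, and leaving out arrays, lines or days. The slide block leaves out the PKM2 knock-in day 7 array, which is alone on its slide.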

Additional observations from a re-analysis of the deposited data

Results flagged for a closer look

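For 10 genes, 1 line moved opposite to both others by more than the standard error of the comparison. These differences between lines were not tested, since each line had 1 array per day. At day 3 from day 0, Hk2 had a log2 difference of 0.42 in PKM1 knock-in, -0.39 in PKM2 knock-in and 0.70 in wild type. The dim genes Fbp1 and Ldhc, below background on some arrays, went the same way, Fbp1 at 0.69 in PKM1 knock-in, -0.51 in PKM2 knock-in and 1.82 in wild type, and Ldhc at 0.83 in PKM1 knock-in, -2.08 in PKM2 knock-in and 2.40 in wild type.

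At day 7 from day 0, 5 genes stood below their day 0 signal in the PKM2 knock-in line and above it in both others, by more than the standard error in each line. Pfkl was at 0.89 in PKM1 knock-in, -0.61 in PKM2 knock-in and 0.90 in wild type. Pfkfb3 was at 2.77 in PKM1 knock-in, -1.04 in PKM2 knock-in and 2.09 in wild type. Aldoa was at 0.40 in PKM1 knock-in, -0.73 in PKM2 knock-in and 0.60 in wild type. Tpi1 was at 1.46 in PKM1 knock-in, -0.73 in PKM2 knock-in and 1.03 in wild type. Ldha was at 1.24 in PKM1 knock-in, -0.48 in PKM2 knock-in and 1.0 in wild type. All 5 rest in part on the PKM2 knock-in day 7 array, which was alone on slide 3, so slide and sample cannot be told apart there. They rest as well on the PKM2 knock-in day 0 array on slide 1, which held the highest day 0 signal for all 5. PKM2 knock-in and wild type signals at day 7 were 10.69 and 10.85 for Pfkl, 16.58 and 16.89 for Aldoa and 16.09 and 16.10 for Ldha. They lay further apart for Tpi1, at 13.29 and 13.88, and for Pfkfb3, at 8.7 and 10.3. Pfkp was below its day 0 signal in both knock-in lines, at -0.66 in PKM1 knock-in, -0.40 in PKM2 knock-in and 0.32 in wild type. Gapdhs, above background on 4 arrays, was at -2.01 in PKM1 knock-in, 0.83 in PKM2 knock-in and 1.01 in wild type. At day 7 from day 3 it was at -1.66 in PKM1 knock-in, 1.08 in PKM2 knock-in and 1.46 in wild type.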

How the results depend on the processing

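Day comparisons were paired by line, and line comparisons by day, since both terms entered the fit. The count of glycolysis genes called at day 3 against day 0, 2 in the report, was 7 with normexp correction, 1 with quantile normalization, 0 without a filter on dim probes, 6 with the filter on all 9 arrays, 0 with slide as a block, 8 with trend and robust moderation and 9 at a threshold of 0.1. Leaving out arrays or lines gave 0 to 5, with 0 when any of the 3 wild type arrays, PKM1 knock-in day 0 or day 3, PKM2 knock-in day 3, or the whole wild type or PKM1 knock-in line was left out, and 5 when PKM2 knock-in day 7 was. With PKM2 knock-in day 0 or that line left out, the 2 genes called were Ldha and Slc16a3. Over all tested genes, calls at day 3 against day 0 were 608 in the report, 927 with normexp correction and 467 with quantile normalization. They were 125 without the filter, 677 with the filter on all 9 arrays, 574 with slide as a block and 994 with trend and robust moderation. The number of genes tested differed with the filter. For the F test over days, 0 in the report, counts were 2 with normexp, 1 with the filter on all 9 arrays, 3 with trend and robust moderation, 5 at 0.1 and 0 to 5 with arrays left out, the 5 without PKM2 knock-in day 7. Over all tested genes that F test called 177 in the report, 569 with normexp, 411 with the filter on all 9 arrays and 681 with trend and robust moderation. At day 7 against day 3, counts of glycolysis genes were 0 in the report, 6 at 0.1 and 0 to 4 with arrays or lines left out. The count was 4 when all PKM2 knock-in arrays were omitted and 1 when only that of day 7 was. Isozyme pairs at the smallest p were 3 in the report and 1 with quantile normalization. Leaving out arrays was not run for these pairs. Counts of glycolysis genes at day 7 against day 0 and between genotypes were 0 under every alternative run. The log2 difference of Pfkfb3 between PKM2 and PKM1 knock-in, -0.46 in the report, turned to 0.75 with slide as a block, 0.24 without PKM1 knock-in day 7, 0.52 without PKM2 knock-in day 7 and 0.66 without day 7, and lay between -1.24 and 0.66 over all such omissions. The cause was not tested. Gapdh changed sign with quantile normalization at day 7 against day 0 (0.06) and in PKM2 knock-in against wild type (-0.01). At day 3 no gene of the 30 changed sign under another scaling.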

Other observations

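The 2 genes of the set that were not tested gave isolated signals. Pgk2 had a scaled signal of 490.5 on the PKM2 knock-in day 7 array and of 6.92 to 42.5 on the other 8 arrays. Hk3 was above background on the PKM2 knock-in day 3 array alone, at 52.9. Arrdc4, a relative of Txnip, was higher than in wild type by 1.67 ± 0.33 in PKM1 knock-in (limma adjusted p = 0.163) and by 0.65 ± 0.33 in PKM2 knock-in (limma adjusted p = 0.460). Epas1, which encodes a HIF subunit, reached 15.93 on the PKM1 knock-in day 7 array and 11.56 to 14.19 on the others.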
